A study of Mus musculus with 9 samples.

Results

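The matrix metalloproteinases Mmp3, Mmp8, Mmp9, Mmp12, Mmp13, Mmp14 and Mmp19 and the tissue inhibitors of metalloproteinases Timp1, Timp2 and Timp3 were followed in bone marrow-derived macrophages (BMDMs), which are macrophages grown from marrow with macrophage colony-stimulating factor. They are 10 of the 18193 genes on the array, chosen by name, and were read by 22 of its 45037 probe sets, each annotated to 1 of these genes alone. All 9 arrays held BMDMs of BALB/c mice aged 8 to 10 weeks, cultured for 7 days and then kept overnight in medium with 1% serum. TNC + TLR4i cells (n = 3) were kept for 1 h with the Toll-like receptor 4 (TLR4) inhibitor TAK-242 at 3 µM, after which tenascin C (TNC), a glycoprotein of the extracellular matrix, was added at 2 µg/ml for 6 h. TNC + vehicle cells (n = 3) had 0.1% DMSO in place of the inhibitor, followed by TNC in the same way, and for untreated cells (n = 3) the labels name no addition. TNC and the DMSO vehicle of the inhibitor therefore cannot be told apart in the comparison with untreated cells, and no endotoxin control was among these arrays. The labels call the arrays biological replicates without naming mice, so p-values measure the spread between these arrays, which may be partly technical.

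Metalloproteinases are zinc enzymes that cut collagens, elastin, proteoglycans and many cell surface proteins. Most are secreted as inactive proenzymes and become active when their propeptide is removed, whereas Mmp14 (MT1-MMP) stays in the membrane. TIMPs bind the active site and block it, and the same TIMP2 that inhibits MMP14 at high amounts can, bound to it, present proMMP2 for activation. In macrophages these enzymes are known from matrix remodelling, cell migration and the release of cytokines from the cell surface. The arrays measured RNA and say nothing of proenzyme, active enzyme or inhibitor complex.

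Values are log2 RMA signals, on which a difference of 1 is a doubling. Array medians lay between 6.72 and 6.74, and the macrophage markers averaged 12.33 to 12.41 in TNC + TLR4i, 12.39 to 12.44 in TNC + vehicle and 12.43 to 12.48 in untreated arrays. Single macrophage markers moved within this mean: with TNC Fcgr1 was called higher (0.94) and Mrc1 lower (-1.05), and relative to TNC + vehicle 3 of 9 were called in TNC + TLR4i, Mrc1 higher (0.82) and Fcgr1 (-1.15) and Cd14 (-0.61) lower. Array TNC + vehicle replicate 1 stood apart: 11 of 12 endothelial markers were higher there than in the other arrays of its group, by a median of 0.50. Fibroblast markers were also mostly higher there, 8 of 9 by a median of 0.18 over the list. For macrophage markers it was 3 of 9, for neutrophil markers 2 of 9 and for mast cell markers 5 of 8. Endothelial markers averaged 6.85 to 6.89 in TNC + TLR4i, 7.14 to 7.70 in TNC + vehicle and 6.94 to 6.95 in untreated arrays. Of all 18193 genes, 3.74% were called higher and 4.05% lower with TNC, and 4.25% and 4.05% in TNC + TLR4i against TNC + vehicle. In TNC + TLR4i against untreated the shares were 0.0605% and 0.198%. Before adjustment, 3236 and 3793 passed 0.05 upwards and downwards with TNC, and 4030 and 3026 in TNC + TLR4i against TNC + vehicle (limma). The marker counts stand beside these shares. With TNC 1 of the 12 endothelial markers was called higher, Kdr (1.63), with a median of 0.33 over the list. Before adjustment 4 of the 12 passed 0.05 upwards and 1 downwards (limma). Kdr was the marker that was not higher in replicate 1: it was at 9.0 there and at 9.58 and 9.59 in the other TNC + vehicle arrays. In TNC + TLR4i against TNC + vehicle 2 were called lower, Kdr (-1.96) and Cdh5 (-0.63), with a median of -0.43, while 8 passed 0.05 downwards and 1 upwards before adjustment. Cdh5 was at 7.56 in TNC + vehicle replicate 1 and at 6.89 and 6.56 in the other arrays of that group. Fibroblast markers averaged 9.0 to 9.27 in TNC + TLR4i, 9.15 to 9.45 in TNC + vehicle and 9.14 to 9.30 in untreated arrays, and 0 of 9 were called in any comparison (limma; with TNC 3 passed an unadjusted p of 0.05 upwards and 2 downwards). Of the collagen genes among them, Col1a2 averaged 13.28 in TNC + TLR4i, 13.16 in TNC + vehicle and 13.28 in untreated arrays, and Col3a1 averaged 11.78 in TNC + TLR4i, 11.52 in TNC + vehicle and 11.99 in untreated arrays. Col1a1 averaged 9.70 in TNC + TLR4i, 9.52 in TNC + vehicle and 9.54 in untreated arrays. By mean signal the collagens were at percentiles 99.6 (Col1a2), 98.2 (Col3a1) and 89.2 (Col1a1) of all probe sets. The rest of the fibroblast list lay lower, Dcn at 87.5, Pdgfrb at 85.9, Pdgfra at 79.1, Postn at 76.3, Lum at 45.6 and Thy1 at 34.4. Which cells of the cultures held the RNA of the metalloproteinases and TIMPs was not tested. With TNC, Col3a1 differed by -0.47 (limma adjusted p = 0.0335) and Dcn by 0.46 (0.00108), both short of 1.5-fold. Neutrophil markers averaged 7.23 to 7.40 in TNC + TLR4i, 7.33 to 7.67 in TNC + vehicle and 7.23 to 7.71 in untreated arrays, and again 0 of 9 were called (with TNC 2 passed an unadjusted p of 0.05 upwards and 1 downwards). Mast cell markers averaged 6.20 to 6.29 in TNC + TLR4i, 6.43 to 6.55 in TNC + vehicle and 6.17 to 6.27 in untreated arrays, and 1 of 8 was called with TNC, Hdc (0.98), which was also called lower in TNC + TLR4i than in TNC + vehicle (-1.03). The 3′ minus 5′ signal of the actin control, a sign of RNA integrity, was 0.30 to 0.37 in TNC + TLR4i, 0.20 to 0.22 in TNC + vehicle and 0.29 to 0.32 in untreated arrays. That of the Gapdh control was -0.32 to -0.26 in TNC + TLR4i, -0.33 to -0.30 in TNC + vehicle and -0.35 to -0.33 in untreated arrays. By Gapdh the TNC + vehicle arrays were thus not set apart. The part of these differences in the results that follow was not tested, and in bulk samples fewer cells of a type and less RNA per cell cannot be told apart.

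The first comparison asked how the family differed between TNC + vehicle and untreated cells, which is called the change with TNC below. In TNC + vehicle arrays Mmp14, Mmp13, Mmp3 and Mmp9 rose over untreated arrays, by 5.44-, 4.11-, 2.11- and 1.96-fold, and so did 1 inhibitor, Timp3, by 1.75-fold. The other 5 genes did not reach the call, which asked for an adjusted p under 0.05 and at least a 1.5-fold change. Thus 5 of 10 genes were called higher, where 3.74% of all genes were, and 0 were called lower, where 4.05% of all genes were (limma). Before adjustment 6 of the 10 passed 0.05 upwards and 4 downwards, beside 3236 and 3793 of all 18193 genes (limma). The median log2 change was 0.60 over the 10 genes and 0.01 over all genes.

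Mmp14, the membrane-bound collagenase, had the largest change of the family. Its signal was 9.30, 9.17 and 9.20 in TNC + TLR4i arrays, 11.48, 11.76 and 11.67 in TNC + vehicle arrays and 9.17, 9.15 and 9.25 in untreated arrays. Every TNC + vehicle array lay above all others, and those of TNC + TLR4i and untreated cells overlapped. The difference of TNC + vehicle from untreated was 2.44 ± 0.08 (SE; limma adjusted p = 3.57e-09). The other probe sets of the gene, 1416572_at and 1440920_at, gave 2.31 ± 0.09 and 2.04 ± 0.10, so that 3 of 3 were called.

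Mmp13, the main collagenase of rodents, was at 8.44, 8.12 and 8.54 in TNC + TLR4i arrays, 10.65, 10.45 and 10.33 in TNC + vehicle arrays and 8.33, 8.41 and 8.57 in untreated arrays. The TNC + vehicle arrays were again apart from the rest, by 2.04 ± 0.09 over untreated (limma adjusted p = 3.45e-08). Mmp3, stromelysin-1, which also activates other proenzymes, was at 6.65, 6.51 and 6.48 in TNC + TLR4i arrays, 7.95, 7.49 and 7.61 in TNC + vehicle arrays and 6.51, 6.63 and 6.67 in untreated arrays. All 6 values outside TNC + vehicle lay below the array median. The rise was 1.08 ± 0.11 (limma adjusted p = 1.58e-05), and 0.94 without TNC + vehicle replicate 1, the highest array.

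Mmp9, gelatinase B, which degrades basement membrane collagen, was at 7.37, 7.17 and 7.09 in TNC + TLR4i arrays, 8.27, 8.13 and 8.07 in TNC + vehicle arrays and 7.40, 7.10 and 7.05 in untreated arrays. The difference of TNC + vehicle from untreated was 0.97 ± 0.10 (limma adjusted p = 1.53e-05) at the main probe set and 1.07 ± 0.07 at 1448291_at, the other one. Both probe sets put the 3 TNC + vehicle arrays above all others.

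**Figure D1:**
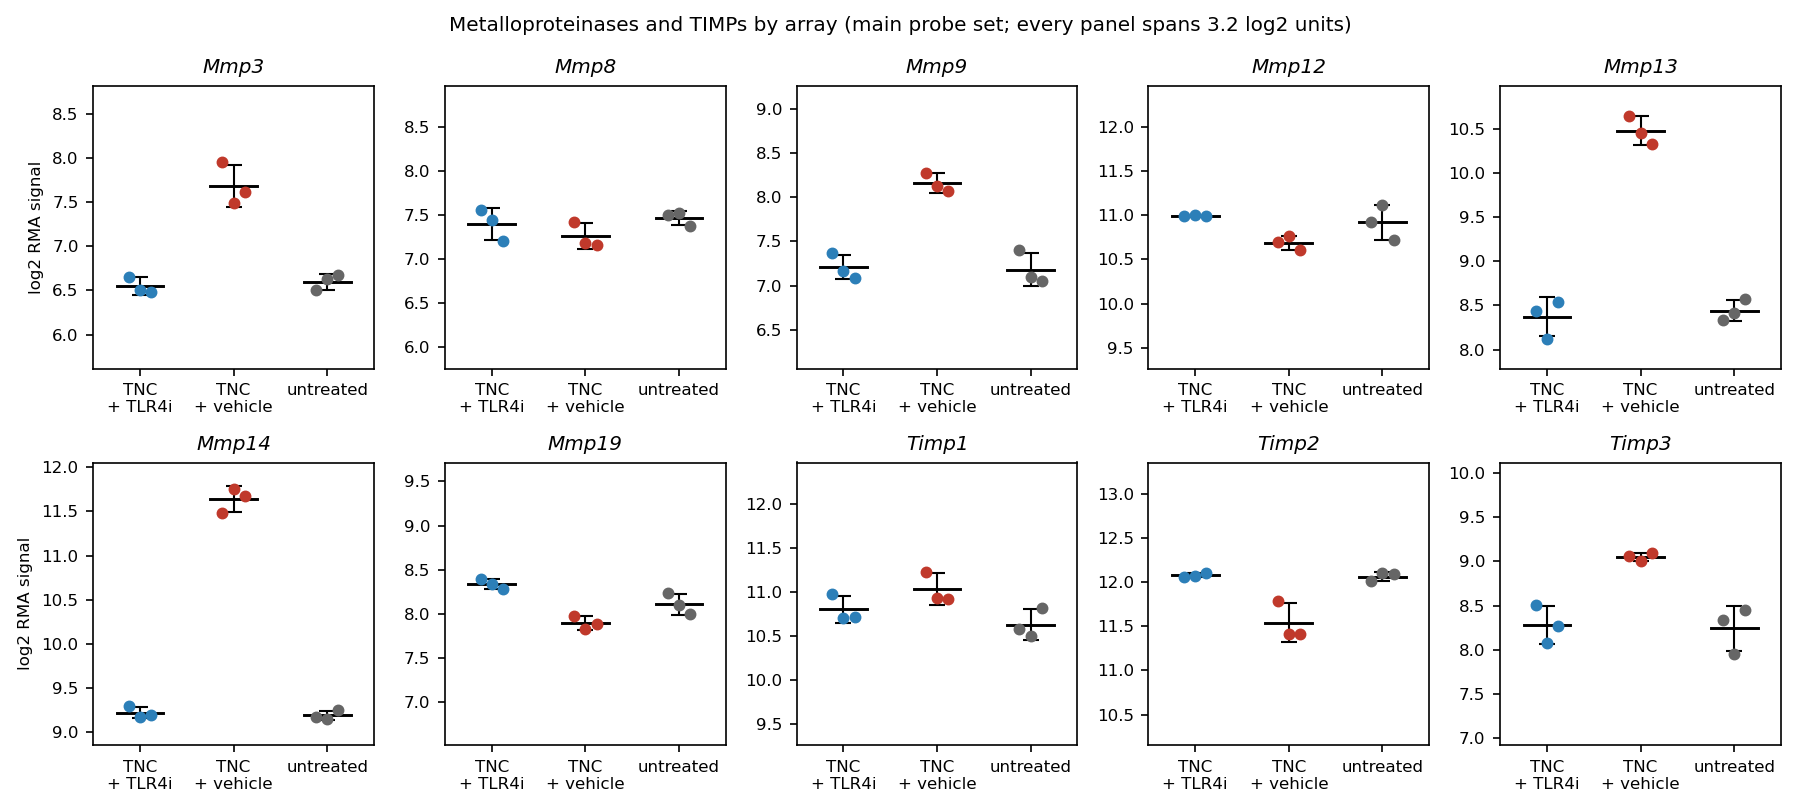
Log2 RMA signal of the 10 genes in each array (points), from left to right in TNC + TLR4i, TNC + vehicle and untreated cells, at the probe set with the highest mean; wide lines are group means and bars SD, n = 3. The TNC + vehicle arrays of Mmp14 lie between 11.48 and 11.76, above a highest value of 9.30 elsewhere, while those of Timp2 lie below the other 6 arrays.

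The 3 remaining enzymes did not share this rise. Mmp12, macrophage elastase, was at 10.99, 11 and 10.99 in TNC + TLR4i arrays, 10.70, 10.77 and 10.61 in TNC + vehicle arrays and 10.92, 11.12 and 10.72 in untreated arrays. TNC + vehicle and untreated overlapped, with a difference of -0.23 (95% interval -0.44 to -0.02; limma adjusted p = 0.119). Mmp8, the collagenase of neutrophils, was at 7.56, 7.44 and 7.21 in TNC + TLR4i arrays, 7.42, 7.18 and 7.16 in TNC + vehicle arrays and 7.50, 7.52 and 7.37 in untreated arrays. These groups overlapped, and TNC + vehicle differed from untreated by -0.21 (-0.39 to -0.02; limma adjusted p = 0.105). Mmp19, an enzyme with basement membrane substrates, was at 8.40, 8.34 and 8.28 in TNC + TLR4i arrays, 7.98, 7.83 and 7.89 in TNC + vehicle arrays and 8.24, 8.10 and 8.00 in untreated arrays. Its TNC + vehicle and untreated arrays did not overlap, and the difference of -0.22 (-0.39 to -0.05) missed the test (limma adjusted p = 0.0701). At its other probe set, 1421976_at, these groups overlapped, with a difference of -0.11 (-0.29 to 0.07; limma adjusted p = 0.425). These intervals leave no room for a rise of 1.5-fold.

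Of the 3 inhibitors, Timp3 was called with TNC, while Timp1 and the main probe set of Timp2 did not reach 1.5-fold. Timp3, which binds to the matrix and also blocks ADAM17, was at 8.51, 8.07 and 8.27 in TNC + TLR4i arrays, 9.06, 9.0 and 9.09 in TNC + vehicle arrays and 8.34, 7.95 and 8.45 in untreated arrays. It rose by 0.80 ± 0.11 (limma adjusted p = 0.000206), and its 4 probe sets, from 0.59 to 0.80, were all called. Timp1, a secreted inhibitor that binds proMMP9, was at 10.97, 10.70 and 10.72 in TNC + TLR4i arrays, 11.23, 10.93 and 10.92 in TNC + vehicle arrays and 10.58, 10.50 and 10.82 in untreated arrays. Its difference of 0.39 (0.16 to 0.62) had a limma adjusted p of 0.0175 without reaching 1.5-fold, and its TNC + vehicle and TNC + TLR4i arrays overlapped. Without TNC + vehicle replicate 1, the highest array, it was 0.29 (limma adjusted p = 0.0564). Leaving out untreated replicate 1 or 2 gave a limma adjusted p of 0.074 or 0.069. With each of the other arrays left out it stayed under 0.05.

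Timp2, the partner of Mmp14 at the cell surface, was lower with TNC. At the main probe set it was at 12.06, 12.07 and 12.10 in TNC + TLR4i arrays, 11.79, 11.41 and 11.41 in TNC + vehicle arrays and 12.01, 12.10 and 12.09 in untreated arrays. The difference of TNC + vehicle from untreated was -0.53 ± 0.10 (limma adjusted p = 0.00215), short of 1.5-fold. Of the 6 probe sets of the gene, 4 were called lower, at -0.68 ± 0.12 (1420924_at), -0.79 ± 0.12 (1450040_at), -0.84 ± 0.14 (1454677_at) and -0.91 ± 0.13 (1433662_s_at, whose name marks probes that may match more than 1 transcript). The remaining one, 1437081_at, lay below the array median in all 9 arrays and differed by -0.06. In the 5 brighter probe sets TNC + vehicle replicate 1, the array with the higher endothelial and fibroblast markers, was the highest of its group. Without it the main probe set gave -0.66, a called fall, and the mean of the 6 probe sets gave -0.64 over all 6 arrays, also called.

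**Figure D2:**
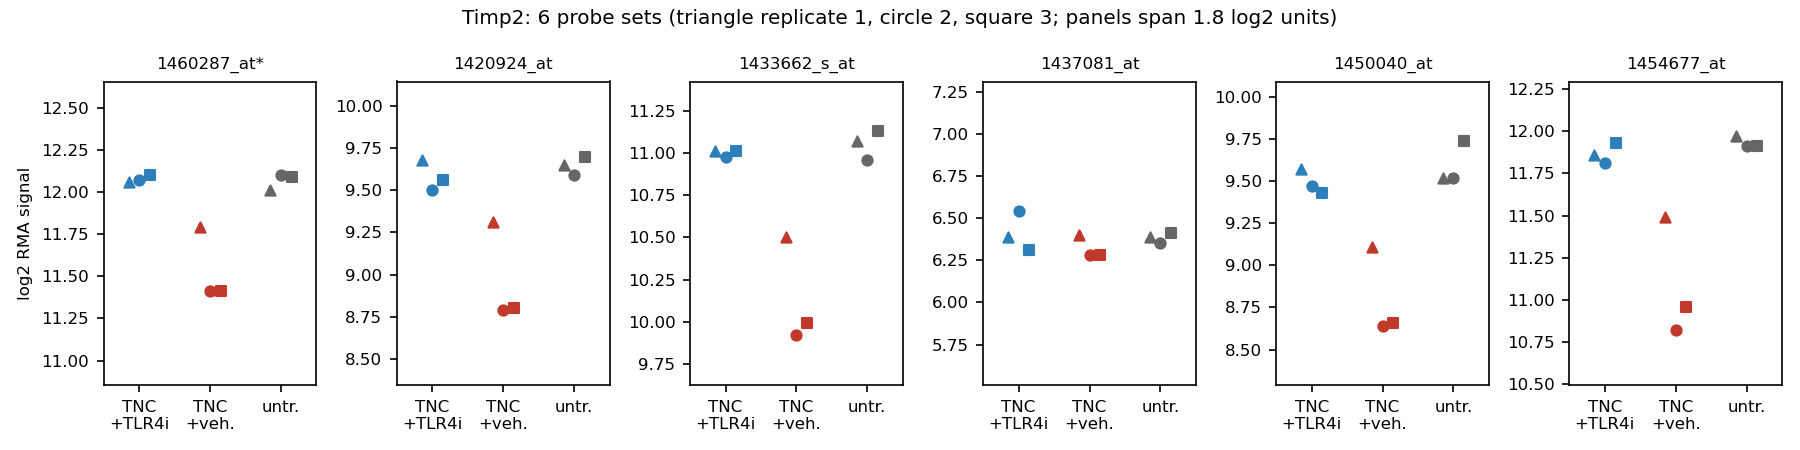
Log2 RMA signal of the 6 Timp2 probe sets (* main probe set) in each array, from left to right in TNC + TLR4i, TNC + vehicle (veh.) and untreated (untr.) cells; symbols give the replicate number and each panel has its own level. In 5 of the 6 the TNC + vehicle arrays lie below the other 6 arrays, with replicate 1 (triangle) the highest of its group.

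The second comparison asked what TLR4 inhibition left of this pattern. Relative to TNC + vehicle, the 5 genes called higher there than in untreated cells were lower in TNC + TLR4i cells: Mmp14 5.32-fold, Mmp13 4.31-fold, Mmp3 2.20-fold, Mmp9 1.93-fold and Timp3 1.70-fold. These 5 of 10 were called lower, where 4.05% of all genes were, and 0 were called higher, where 4.25% of all genes were (limma). Before adjustment 6 of the 10 passed 0.05 downwards and 3 upwards, beside 3026 and 4030 of all 18193 genes (limma). The median log2 change was -0.50 over the 10 genes and 0.00 over all genes. Both comparisons use the same TNC + vehicle arrays, so their opposite signs are not independent of each other.

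The log2 differences of TNC + TLR4i from TNC + vehicle were -2.41 ± 0.08 for Mmp14 (SE; limma adjusted p = 1.31e-09) and -2.11 ± 0.11 for Mmp13 (4.75e-08). Mmp3 differed by -1.13 ± 0.11 (limma adjusted p = 7.73e-06) and Mmp9 by -0.95 ± 0.09 (5.52e-06). For Timp3 the difference was -0.77 ± 0.10 (limma adjusted p = 0.000104), with 3 of its 4 probe sets called and 1419088_at at -0.45. Timp2 was 0.54 ± 0.10 higher (limma adjusted p = 0.00146), and the 4 probe sets that had been called lower with TNC were called higher here, by 0.61 to 0.86. Without TNC + vehicle replicate 1 the main probe set gave 0.67, a called rise. Mmp19 and Mmp12 were 0.44 ± 0.07 and 0.30 ± 0.07 higher, with limma adjusted p of 0.000563 and 0.00652, and neither reached 1.5-fold. The other probe set of Mmp19, 1421976_at, gave 0.27 (0.11 to 0.44; limma adjusted p = 0.0204). Timp1 differed by -0.23 (-0.45 to -0.01; limma adjusted p = 0.134) and Mmp8 by 0.15 (-0.07 to 0.36; 0.36).

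The third comparison set TNC + TLR4i cells, which had TNC and inhibitor together, against untreated cells. None of the 10 genes was called: 0 were higher, where 0.0605% of all genes were, and 0 lower, where 0.198% of all genes were (limma). Before adjustment 1 of the 10 passed 0.05 upwards and 0 downwards, beside 879 and 842 of all 18193 genes (limma). Log2 differences ran from -0.07 for Mmp13 (95% interval -0.29 to 0.15) to 0.23 for Mmp19 (0.07 to 0.39; limma adjusted p = 0.356). For Mmp14 the interval was -0.11 to 0.17 around 0.03, for Mmp3 -0.22 to 0.10 around -0.06, for Mmp9 -0.18 to 0.24 around 0.03 and for Timp3 -0.24 to 0.32 around 0.04. For Timp2 it was -0.12 to 0.15 around 0.01, and for Timp1 -0.04 to 0.37 around 0.16. The intervals of the main probe sets thus lay within 1.5-fold in either direction, which does not show that the 2 groups were alike.

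**Figure D3:**
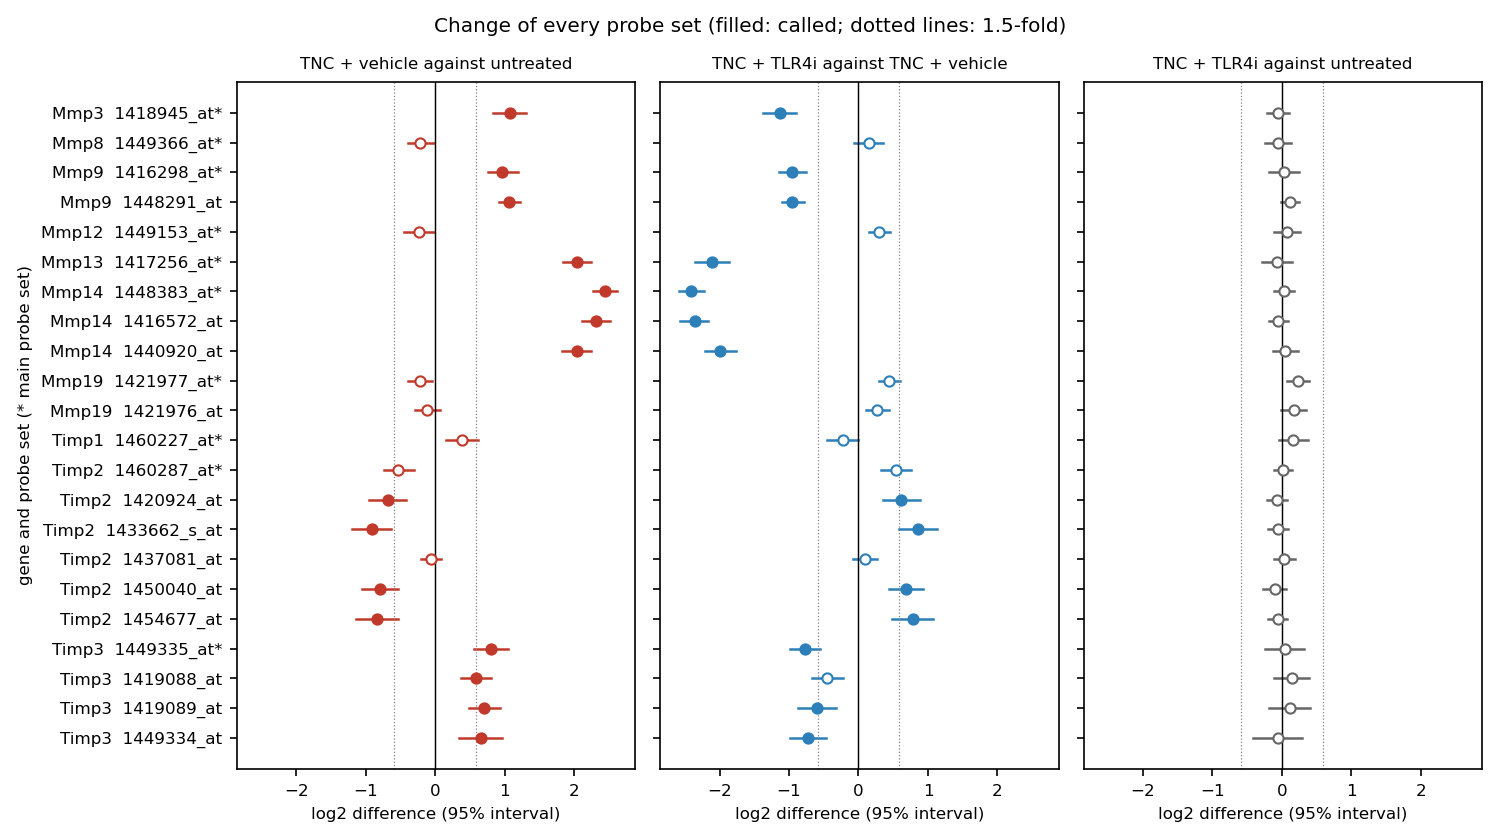
Log2 difference of each of the 22 probe sets in the 3 comparisons, with 95% intervals from limma (n = 3 a group); filled points were called and dotted lines mark 1.5-fold. All probe sets of Mmp14, Mmp13, Mmp3, Mmp9 and Timp3 lie to the right in the first panel, 4 of 6 of Timp2 are called to the left, and 0 are called in the third.

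Mmp13, Mmp12, Mmp3 and Mmp8 lie in a cluster of 10 metalloproteinase genes on chromosome 9, of which 9 were measured. In map order the cluster runs Mmp13, Mmp12, Mmp1b, Mmp3, Mmp1a, Mmp10, Mmp8, Mmp27, Mmp20 and Mmp7. With TNC, 2 of the 9 were called higher, beside 3.74% of all genes, Mmp13 (2.04) at one end and Mmp3 (1.08) further in. Mmp12 (-0.23), which lies between them, was not, nor was Mmp1b (0.08). Next to Mmp3, Mmp1a differed by 0.05 and Mmp10, a second stromelysin, by 0.31 (0.17 to 0.46; limma adjusted p = 0.00498), under the fold threshold. Mmp1b, Mmp1a and Mmp10 averaged 5.96, 5.88 and 6.56 over the 9 arrays, below the array medians of 6.72 to 6.74. A small difference at so low a signal does not show that a gene stayed unchanged. The genes named here for their place on the map only were picked after their values were seen.

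**Figure D4:**
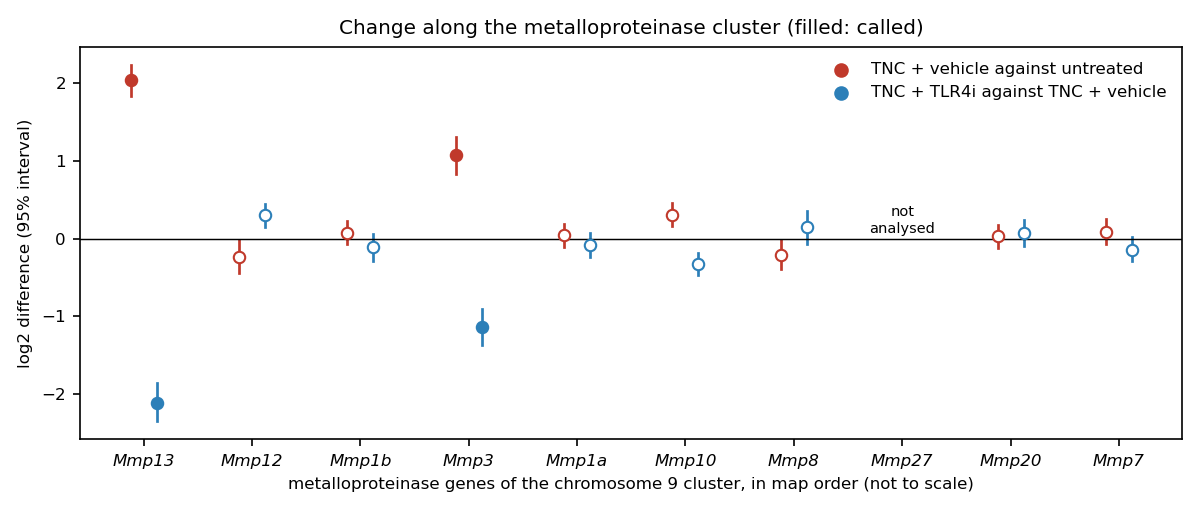
Log2 difference with 95% interval of the chromosome 9 metalloproteinase genes in map order, for TNC + vehicle against untreated and TNC + TLR4i against TNC + vehicle (n = 3 a group); filled points were called, and Mmp27 was not analysed. Mmp13 and Mmp3 stand out at 2.04 and 1.08 in the first comparison, with the genes between and beside them at -0.23 to 0.31. Of the latter, Mmp1b, Mmp1a and Mmp10 averaged below the array medians.

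Promoter windows, from 250 bases before to 50 after the transcript start, were read for 8 of the 10 genes from RefSeq (GRCm38.p6, the C57BL/6J reference and not the BALB/c genome). Mmp9 and Mmp19 were not among them. The windows of Mmp13 and Mmp3 are shown because both of these cluster genes rose. That of Mmp12 is shown because it lies between them and did not rise, and that of Mmp14 because it rose most. Capitals mark matches on either strand to TGANTCA, the AP-1 motif of Fos and Jun proteins, and to AGGAAG, the PEA3 motif of Ets factors. They do not overlap each other.
Mmp13, chr9:7272264-7272563, plus strand: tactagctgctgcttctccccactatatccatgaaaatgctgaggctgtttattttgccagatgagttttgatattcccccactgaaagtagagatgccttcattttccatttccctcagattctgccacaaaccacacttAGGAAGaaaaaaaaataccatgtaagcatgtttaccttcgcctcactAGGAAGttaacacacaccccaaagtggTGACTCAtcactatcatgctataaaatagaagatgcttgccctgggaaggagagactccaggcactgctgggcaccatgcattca
Mmp3, chr9:7445572-7445871, plus strand: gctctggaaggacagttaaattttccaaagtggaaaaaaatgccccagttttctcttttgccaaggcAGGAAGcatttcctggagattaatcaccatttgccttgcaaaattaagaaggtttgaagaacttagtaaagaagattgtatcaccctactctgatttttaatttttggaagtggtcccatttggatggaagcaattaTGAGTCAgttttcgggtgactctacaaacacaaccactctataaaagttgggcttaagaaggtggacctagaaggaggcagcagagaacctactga
Mmp12, chr9:7347124-7347423, plus strand: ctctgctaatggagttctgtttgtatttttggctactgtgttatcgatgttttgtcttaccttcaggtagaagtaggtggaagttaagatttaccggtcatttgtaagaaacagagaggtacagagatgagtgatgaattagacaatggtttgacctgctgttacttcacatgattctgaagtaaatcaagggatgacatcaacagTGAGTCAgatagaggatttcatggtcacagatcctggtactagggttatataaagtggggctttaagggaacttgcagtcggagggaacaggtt
Mmp14, chr14:54431348-54431647, plus strand: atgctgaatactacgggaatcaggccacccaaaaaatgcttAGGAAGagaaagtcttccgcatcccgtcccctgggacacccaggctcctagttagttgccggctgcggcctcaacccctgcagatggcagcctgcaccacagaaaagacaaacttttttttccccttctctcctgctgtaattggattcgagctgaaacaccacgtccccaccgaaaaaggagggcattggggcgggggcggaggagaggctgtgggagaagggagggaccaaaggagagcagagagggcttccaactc
The AP-1 motif begins 35 bases before the start in Mmp13, 46 in Mmp3 and 44 in the Mmp12 window shown, and the motif TATAAA lies downstream of it in each of the 3. TATAAA begins 16 bases before the annotated start in Mmp13 and 7 in Mmp3. In the Mmp12 window it begins after that start, at base 5 of the transcript. An AP-1 match is held by 7.81% of the 32851 promoter windows of the genome and a PEA3 match by 35.4%. Mmp12 has a second annotated start, whose window holds no AP-1 match and 1 PEA3 match. Mmp14, Timp1, Timp2, Timp3 and Mmp8 have no AP-1 match in their windows, and all of these but Timp2 have a PEA3 match. The 10-base kB consensus of NF-kB was found in none of the windows of the 8 genes and in 4.51% of all windows. These matches are letters in a window and are not evidence that a factor bound there.

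Of the other metalloproteinases and Timp4, 12 of 17 were measured and 0 were called in any comparison (limma). Of all genes, 3.74% were called higher and 4.05% lower with TNC, and 4.25% and 4.05% with TLR4i against TNC + vehicle. In TNC + TLR4i against untreated these shares were 0.0605% and 0.198%. At such shares 0 of 12 is near the figure for all genes. Before adjustment 2 of the 12 passed 0.05 upwards and 2 downwards with TNC, beside 3236 and 3793 of all 18193 genes (limma). Mmp2, gelatinase A, picked for its role with its values known, whose proenzyme is activated by Mmp14 with Timp2, averaged 7.75 in TNC + TLR4i, 7.89 in TNC + vehicle and 8.01 in untreated arrays, a difference of -0.12 with TNC (limma adjusted p = 0.377). The median change over the 12 was 0.04, beside 0.01 over all genes.

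Among 22 measured genes whose proteins activate, bind or clear metalloproteinases, 2 rose and 2 fell with TNC, beside 3.74% and 4.05% of all genes. Serpinb2, an inhibitor of plasminogen activators (plasmin is an activator of proenzymes), averaged 6.74 in TNC + TLR4i, 8.46 in TNC + vehicle and 7.00 in untreated arrays and rose by 1.45. Lcn2, whose human protein forms a complex with MMP9, averaged 6.19 in TNC + TLR4i, 7.71 in TNC + vehicle and 6.38 in untreated arrays and rose by 1.33. The endocytic receptor Lrp1, which takes up metalloproteinases and TIMP complexes, fell by 0.72, and Tspan14, a tetraspanin that accompanies ADAM10, fell by 0.68. With TLR4i the same 4 genes were called the other way relative to TNC + vehicle, at -1.72, -1.52, 0.78 and 0.69, and the integrin subunit Itgav was called higher as well (0.59), which made 3 of 22 higher and 2 lower, beside 4.25% and 4.05% of all genes. The list's median was -0.04 with TNC.

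The ADAM and ADAMTS list had 1 rise and 2 falls among 16 genes with TNC, beside 3.74% and 4.05% of all genes. Rhbdf2 (iRhom2), which brings the sheddase ADAM17 to the surface of myeloid cells, rose by 0.73, while the sheddase Adam8 fell by 0.65 and the aggrecanase Adamts5 by 0.63. Adam17 itself differed by 0.45 with TNC, under the fold threshold (limma adjusted p = 0.000385), and was called lower with TLR4i relative to TNC + vehicle (-0.61), as were Rhbdf2 (-0.64) and the aggrecanase Adamts4 (-0.60). Adam8 (0.82) and Adamts5 (0.60) were called higher there, so that 2 of 16 were higher and 3 lower, beside 4.25% and 4.05% of all genes. Of 16 cathepsins and cystatins 1 rose with TNC, the cystatin Cst7 (0.95), a share near the 3.74% of all genes, and with TLR4i it was called lower (-0.94) together with Ctsc (-0.67), the activator of granule proteases, while the aspartic protease Ctse was called higher (0.61), again beside 4.05% and 4.25% of all genes. Of 21 matrix substrates 1 was called, the matricellular protein Thbs1, which fell by 1.16 with TNC and was 1.12 higher in TNC + TLR4i than in TNC + vehicle. This 1 of 21 is near the 4.05% of all genes called lower with TNC and the 4.25% called higher with TLR4i. In TNC + TLR4i against untreated 0 genes of these 4 lists were called, beside 0.0605% of all genes higher and 0.198% lower (limma). Before adjustment 3 of their genes passed 0.05 upwards and 3 downwards, beside 879 and 842 of all 18193 genes (limma).

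**Figure D5:**
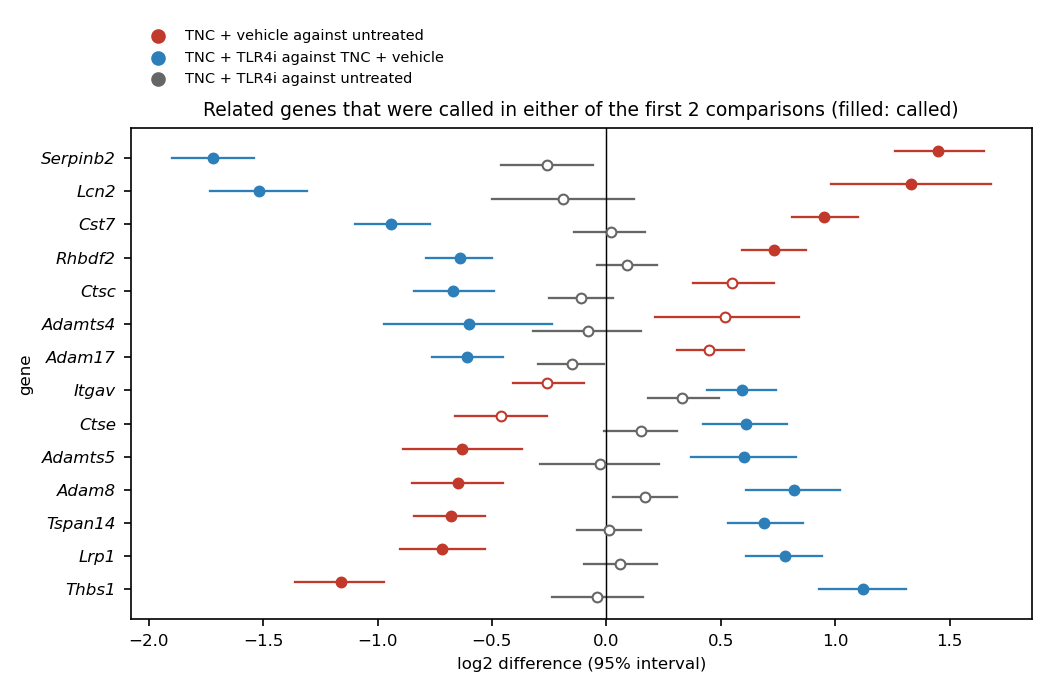
Log2 differences with 95% intervals of the 14 genes of the related lists that were called with TNC or with TLR4i against TNC + vehicle, in the 3 comparisons (n = 3 a group; filled points were called). Serpinb2 (1.45) and Lcn2 (1.33) lie highest and Thbs1 (-1.16) lowest with TNC, and none of the 14 was called in TNC + TLR4i against untreated.

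As a description, the genes whose signal ran most like that of each called member over the 9 arrays were looked up among 1411 other genes called with TNC. The 9 points fall into the 3 groups and share their arrays, so genes that differ between the groups in the same way correlate. Nearest to Mmp14 were Gpd2 (r = 0.999), the mitochondrial glycerol-3-phosphate dehydrogenase, Rasgrp1 (0.999) and Ralgds (0.998), exchange factors of small GTPases. Nearest to Mmp13 were Arhgap31, Tspan3 and Lrrc59 (0.997, 0.997 and 0.996), and nearest to Mmp3 were the Notch ligand Jag1 (0.995), Aldh1b1 (0.991) and Papss2 (0.989). For Mmp9 they were Bst1, Gnb4 and Ube2e2 (0.985, 0.982 and 0.982). Timp3 had the loosest matches, Lnpk, Zeb1 and Ube2e2 (0.969, 0.961 and 0.955).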

How the data were processed

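Total RNA of the 9 cultures was hybridised to Affymetrix mouse 3′ expression arrays. The values deposited by the authors are log2 signals of each probe set, made in Chipster with RMA (robust multiarray averaging). RMA gives all arrays the same distribution, leaves a floor under dim probe sets and would hide a change of total RNA. Of 45101 probe sets, 64 array controls were left out. The platform annotation gave 34945 of the others 1 gene, 932 several and 9160 none, and only the first were named. No filter on low values was used, so all 10 genes were tested, each at its probe set with the highest mean.

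Groups were compared with limma 3.58.1 (lmFit and eBayes) in R 4.3.3 on the 6 arrays concerned, two-sided, with Benjamini-Hochberg adjustment over 45037 probe sets. The same code was run on simulated arrays, in which 200 probe sets had known changes. The number of arrays limits the precision.

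The genes and lists, the naming rule and the alternatives were chosen with earlier results of these data known. The rule named all 10 genes, up to 6 called genes a list, and the 3 nearest by correlation. Alternatives were a fit of all 9 arrays, the replicate block, dim probe sets left out, median centring, cyclic loess, trend and robust settings, array weights, averaged probe sets, other thresholds, and each array left out.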

Additional observations from a re-analysis of the deposited data

How the results depend on the processing

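Of 510 changes of single genes under the alternatives, 484 kept direction and call, 9 gained a call and 4 lost one (Mmp9 and Timp3 in both comparisons, at a minimum of 2-fold). The 13 that turned sign were all in TNC + TLR4i against untreated, where no gene was called: Timp2 was 0 (negative before rounding) after cyclic loess and -0.04 with averaged probe sets, and Mmp9 was 0 with array weights. With 1 array left out, the ranges there were -0.05 to 0.14 for Mmp9, -0.03 to 0.17 for Mmp12, -0.15 to 0.06 for Mmp13, 0 to 0.06 for Mmp14, -0.14 to 0.03 for Mmp8, -0.02 to 0.03 for Timp2 and -0.11 to 0.15 for Timp3.

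With averaged probe sets 1 gene, Timp2, was called lower with TNC and 1 higher with TLR4i against TNC + vehicle. With no minimum fold 1 was called lower with TNC and 3 higher with TLR4i against TNC + vehicle. At a minimum of 2-fold, 3 genes were called higher with TNC and 3 lower with TLR4i against TNC + vehicle. With 1 array left out, 0 to 1 were called lower with TNC and 0 to 1 higher with TLR4i, the 1 being Timp2 without TNC + vehicle replicate 1 (-0.66 and 0.67). The cause of the changes in Timp2 was not tested. The groups share replicate numbers, but deviations of same-numbered arrays correlated at -0.04 to 0.06, -0.04 to 0.14 and -0.10 to 0.05 in the 3 comparisons, so the numbers were not taken as pairs. With the replicate number as a block, 5 genes were called higher and 0 lower with TNC, 0 higher and 5 lower with TLR4i against TNC + vehicle, and 0 in TNC + TLR4i against untreated (limma), as without it.

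Low signal limits the Timp2 probe set 1437081_at, and Mmp3 outside TNC + vehicle, which lay below the array medians. The cluster genes Mmp1b, Mmp1a, Mmp10, Mmp20 and Mmp7 also averaged below these medians. Mmp3 kept its calls with dim probe sets left out (1.08 and -1.13).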
